A study of Mus musculus with 14 samples.

Results

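A set of 10 genes that mark the pyramidal neurons of the hippocampal CA fields were followed through the bulk RNA-seq tables of a mouse study of TRF2 depletion among 20492 gene symbols in each table. They were taken by name, with 6 markers of field CA1 (Wfs1, Fibcd1, Pou3f1, Mpped1, Spink8 and Man1a) and 4 of fields CA2 and CA3 (Bok, Amigo2, Rgs14 and Map3k15). Their rule uses gene names and no measured value, but the genes were chosen with earlier results of these data known. Each of the 10 genes has 1 row per comparison in both tables, so its value is that row's.

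The tissues came from C57BL/6 mice aged 3 months. TRF2, encoded by Terf2, is a shelterin protein that caps telomeres, and the depleted cohort is called TRF2-DCX-cre in the design text, so the Cre is named for Dcx, which immature neurons express. There were 3 TRF2-depleted and 3 control hippocampus samples, and 3 TRF2-depleted and 4 control cortex samples in the labels. A further TRF2-depleted sample carries the names of both tissues and was placed in no group. The hippocampus table also holds a condition called DKO, which no label describes. Its genotype and number of samples are therefore not stated here, and its values are given under that name alone.

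The authors deposited 1 pooled FPKM (fragments scaled to coding length and to library size) per condition, so no spread between samples can be shown for any level, and the read depth is unknown. Their Cuffdiff p and q values are the replicate test. The 95% interval beside a log2 ratio below is approximate, being the interval that the deposited p implies under a normal law. Terf2 itself, summed over its 3 rows, was at 0.883 FPKM in TRF2-depleted, 0.753 FPKM in DKO and 2.01 FPKM in control hippocampus, and was not tested there by the authors. In cortex its sum was 0.202 FPKM in TRF2-depleted and 3.59 FPKM in control samples (p = 0.105 for its best row in the authors' deposited table). In bulk tissue, fewer cells of a type and less RNA per cell cannot be told apart.

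The hippocampus relays signals from the granule neurons of the dentate gyrus to the pyramidal neurons of CA3, and from these to CA1, the main output field. CA2 is a narrow field between them, known for its resistance to injury and its part in social memory. Pyramidal neurons of the CA fields are glutamatergic and are formed before birth, whereas granule neurons go on being produced in the adult dentate gyrus.

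The deposited loci are in build mm10. Wfs1 lies at 36966104 to 36988982 on chromosome 5, Fibcd1 at 31813202 to 31846005 on chromosome 2, and Pou3f1 at 124657646 to 124660655 on chromosome 4. Mpped1 lies at 83780023 to 83858488 on chromosome 15, Spink8 at 109816627 to 109826752 on chromosome 9, and Man1a at 53904786 to 54081081 on chromosome 10. Of the CA2 and CA3 genes, Bok lies at 93685694 to 93695771 on chromosome 1, Amigo2 at 97244074 to 97385691 on chromosome 15, Rgs14 at 55369732 to 55384960 on chromosome 13, and Map3k15 at 159988433 to 160138336 on chromosome X. Each row measures the coding sequence of its gene. Within the deposited loci, no other annotated gene overlaps Wfs1, Fibcd1, Pou3f1, Mpped1, Spink8, Bok or Rgs14, and Man1a overlaps non-coding transcripts only. Parts of these genes outside the deposited loci were not searched.

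Promoter sequence is shown for Fibcd1 and Bok, because these genes lie far apart in how strongly the hippocampus exceeds the cortex; they do not stand for their sets. RefSeq (GRCm38.p6) gave a promoter for 6 of the 10 genes, and none is printed for Spink8, Pou3f1, Rgs14 and Map3k15. The 250 bases before the start are given 5′ to 3′ on the gene's strand, with each CG dinucleotide in capitals. Fibcd1 lies on the minus strand, and its window is chr2:31846006-31846255. Bok lies on the plus strand, and its window is chr1:93685325-93685574.
Fibcd1: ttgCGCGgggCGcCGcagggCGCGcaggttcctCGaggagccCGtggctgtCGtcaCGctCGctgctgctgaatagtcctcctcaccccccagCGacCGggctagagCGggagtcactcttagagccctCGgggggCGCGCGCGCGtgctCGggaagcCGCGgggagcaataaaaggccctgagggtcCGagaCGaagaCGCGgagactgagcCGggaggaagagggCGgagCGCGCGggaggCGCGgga
Bok: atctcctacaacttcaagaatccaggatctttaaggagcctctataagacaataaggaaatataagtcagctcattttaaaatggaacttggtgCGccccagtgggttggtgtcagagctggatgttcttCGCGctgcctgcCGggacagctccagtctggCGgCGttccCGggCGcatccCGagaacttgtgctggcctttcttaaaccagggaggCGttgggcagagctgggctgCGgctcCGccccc

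Fibcd1 has 34 CG dinucleotides in this window, a number that 3.53% of 32851 RefSeq promoter windows reach. Bok has 12, which 33.5% reach, and the median window has 6. CG is its own reverse complement, so both strands are counted at once. The counts describe the letters and carry no test against expression. Among the others, Amigo2 has 38, Man1a 31 and Wfs1 23, and Mpped1 has 47 and 2 in the windows of its alternative starts, so the CA1 genes and the CA2 and CA3 genes overlap in this count.

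Every marker was higher in control hippocampus than in control cortex. The log2 ratio of pooled FPKM was between 0.37 and 4.69, with a median of 1.27 over the 10 genes, 1.32 over the 6 CA1 genes and 1.15 over the 4 CA2 and CA3 genes. The tables were normalized separately, and the median of 11370 genes with at least 1 FPKM in either tissue was itself 0.10. The tissues were compared as a description, with no test.

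Spink8, a Kazal-type inhibitor of serine proteases, had the steepest difference, with 7.61 FPKM in control hippocampus and 0.296 FPKM in control cortex (25.7-fold). Fibcd1, a membrane receptor that binds acetylated sugars, had 15.5 FPKM in control hippocampus and 0.931 FPKM in control cortex (16.7-fold). Of the 11370 genes, 85 and 103 had a ratio at least as high as those of Spink8 and Fibcd1. Amigo2, a leucine-rich repeat adhesion protein, followed at 3.77-fold, and then Pou3f1 at 2.76-fold and Rgs14 at 2.59-fold.

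The remaining markers separated the tissues less. Mpped1 was 2.25-fold, Wfs1 2.23-fold, Bok 1.90-fold, Map3k15 1.68-fold and Man1a 1.29-fold higher in control hippocampus. Of the 10 genes, 7 had at least 1 FPKM in control cortex, and 3154 of 11370 genes had a ratio at least as high as that of Man1a. Between TRF2-depleted tissues the 9 genes with a value above 0 in both were again all higher in hippocampus (log2 ratios 0.58 to 4.36, median 1.87), and Spink8 was listed at 0 in TRF2-depleted cortex.

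**Figure D1:**
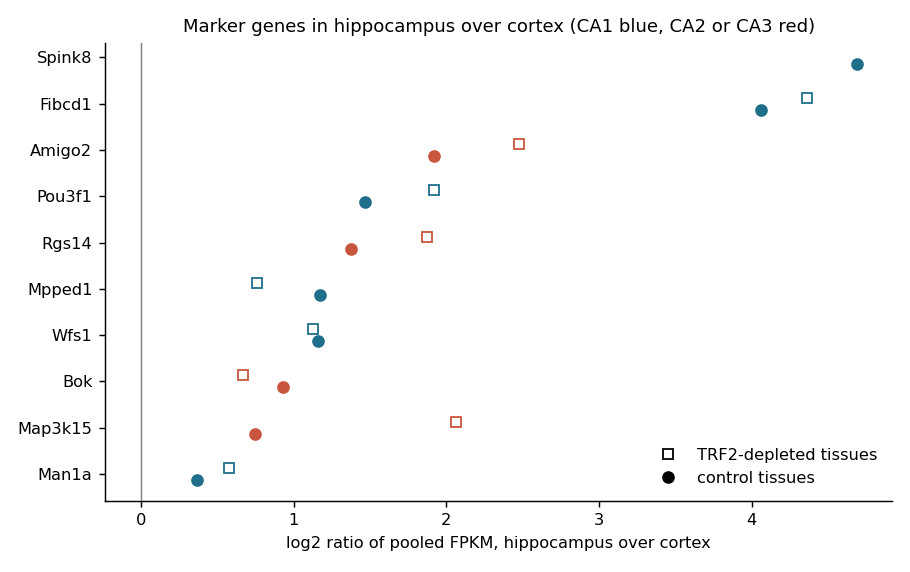
Log2 ratio of pooled FPKM, hippocampus over cortex, for each of the 10 genes (open squares: TRF2-depleted tissues, filled circles: control tissues; CA1 genes in blue, CA2 and CA3 genes in red). All points lie to the right of 0, from 0.37 for Man1a to 4.69 for Spink8 in control tissues, and Spink8 has no square because it was listed at 0 in TRF2-depleted cortex.

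In the hippocampus, none of the 10 CA markers passed the authors' test between TRF2-depleted and control samples. Of the 9 tested by Cuffdiff, 0 rose and 0 fell at a q of 0.05 or less, and 0 had an unadjusted p under 0.05, against 0.183% of 9824 tested genes called at that q and 5.45% with such a p in either direction. With 9 genes tested, a count of 0 lies near those shares. Of the 10 genes, 7 were higher and 3 lower in the TRF2-depleted samples, and the median log2 ratio was 0.16, beside -0.001 over all genes tested.

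The CA1 genes are taken first. Wfs1 encodes wolframin, a membrane protein of the endoplasmic reticulum that is mutated in Wolfram syndrome. It had 23.6 FPKM in TRF2-depleted, 28.3 FPKM in DKO and 25.5 FPKM in control hippocampus, and 10.8 FPKM in TRF2-depleted and 11.4 FPKM in control cortex. The log2 ratio of TRF2-depleted over control hippocampus was -0.11 (95% interval -0.36 to 0.14, p = 0.379 in the authors' deposited table). The TRF2-depleted and control levels of Wfs1 differed by less than the error of the test in both tissues.

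Mpped1, a protein with a metallophosphoesterase domain, had the highest FPKM of the 10 genes in all 5 conditions. It had 35.3 FPKM in TRF2-depleted, 32.8 FPKM in DKO and 27.8 FPKM in control hippocampus (log2 ratio of TRF2-depleted over control 0.34, 95% interval -0.11 to 0.80, p = 0.138 in the authors' deposited table). Mpped1 was lowest in control samples in both tissues, as cortex gave 20.8 FPKM in TRF2-depleted and 12.4 FPKM in control samples.

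Spink8 had 10.6 FPKM in TRF2-depleted, 11.9 FPKM in DKO and 7.61 FPKM in control hippocampus. Its log2 ratio of TRF2-depleted over control was 0.47, the highest of the list, with an interval of -0.23 to 1.17 (p = 0.186 in the authors' deposited table). Fibcd1 had 18.9 FPKM in TRF2-depleted, 21.6 FPKM in DKO and 15.5 FPKM in control hippocampus, and the ratio of TRF2-depleted over control was 0.28 (95% interval -0.04 to 0.60, p = 0.0897 in the authors' deposited table). Both genes, at under 1 FPKM in cortex, had their lowest hippocampal level in control samples, by margins that did not pass the test.

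Pou3f1 is a POU-domain transcription factor also known as SCIP or Oct6. Its level was 15.6 FPKM in TRF2-depleted, 19.3 FPKM in DKO and 16.0 FPKM in control hippocampus (log2 ratio of TRF2-depleted over control -0.03, 95% interval -0.29 to 0.23). Man1a, a Golgi mannosidase that trims N-glycans, had 7.997 FPKM in TRF2-depleted, 8.06 FPKM in DKO and 7.32 FPKM in control hippocampus (log2 ratio of TRF2-depleted over control 0.13, 95% interval -0.39 to 0.64). These genes had p = 0.800 and 0.627 in the authors' deposited table, and neither moved beyond the error that the test allows.

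The CA2 and CA3 genes gave a similar spread. Bok, a Bcl2-family protein that marks CA3, had 12.5 FPKM in TRF2-depleted, 18.0 FPKM in DKO and 14.8 FPKM in control hippocampus. The log2 ratio of TRF2-depleted over control was -0.24, the lowest of the 10, with an interval of -0.86 to 0.38 (p = 0.449 in the authors' deposited table). Rgs14, a regulator of G-protein signalling that restrains synaptic plasticity in CA2, had 16.0 FPKM in TRF2-depleted, 19.0 FPKM in DKO and 15.9 FPKM in control hippocampus. Its TRF2-depleted and control levels differed by 0.359%, with an interval of -0.27 to 0.28 on the log2 scale.

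Amigo2 had 5.54 FPKM in TRF2-depleted, 4.96 FPKM in DKO and 4.86 FPKM in control hippocampus (log2 ratio of TRF2-depleted over control 0.19, 95% interval -0.18 to 0.56, p = 0.311 in the authors' deposited table). The deposited locus of Amigo2 runs over 142 kb of chromosome 15 and overlaps Pced1b, which lies on the opposite strand in GENCODE, and counting by strand is not stated in the sources used here. Map3k15, a MAP kinase kinase kinase also called ASK3, had 0.475 FPKM in TRF2-depleted, 0.444 FPKM in DKO and 0.379 FPKM in control hippocampus. It was the least abundant marker, its locus on chromosome X reaches into Pdha1, and the authors did not test it in any comparison.

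**Figure D2:**
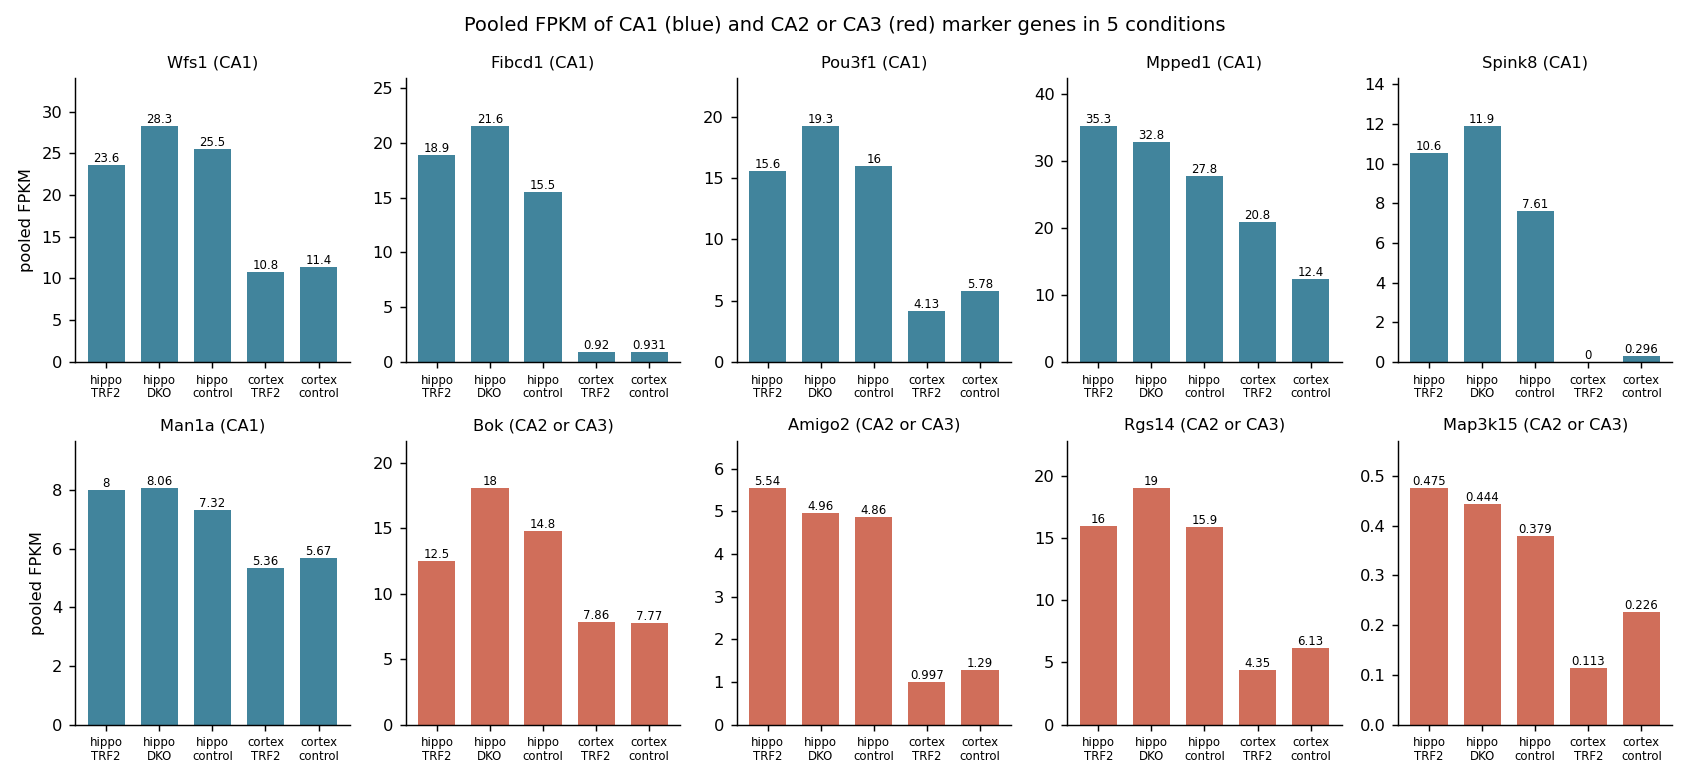
Pooled FPKM (vertical axes from 0, a scale for each gene) of the 10 genes in 5 conditions, with CA1 genes in blue and CA2 and CA3 genes in red; each bar is 1 pooled value of the authors, with no error available. Hippocampal bars exceed cortical bars for every gene, and the DKO bar is the highest of the 3 hippocampal bars for 7 of the 10 genes.

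The sets were then compared in TRF2-depleted over control hippocampus. The median on the log2 scale was 0.20 for CA1, where 4 of 6 genes were higher. For CA2 and CA3 it was 0.10, where 3 of 4 genes were higher. Without Map3k15, which the authors did not test, the CA2 and CA3 median was 0.005, with 2 genes higher and 1 lower. The summed FPKM of the CA1 genes was 111.9 in TRF2-depleted, 122.0 in DKO and 99.7 in control hippocampus. That of the CA2 and CA3 genes was 34.5 in TRF2-depleted, 42.4 in DKO and 35.9 in control hippocampus. The quotient of the sums was 3.24 in TRF2-depleted, 2.87 in DKO and 2.78 in control hippocampus. These are pooled values of 6 and 4 genes with no error of their own, so a difference between the fields was not tested.

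Against the control, all 10 markers were higher in the DKO condition and none passed the authors' test. Of 9 tested by Cuffdiff, 0 rose and 0 fell at a q of 0.05 or less, where 0.204% of 9816 tested genes were called. Fibcd1 and Pou3f1, 2 genes, had an unadjusted p under 0.05 in the higher direction, against 4.26% of the tested genes. The median log2 ratio was 0.25 over the 10 genes, 0.26 over the CA1 genes and 0.24 over the CA2 and CA3 genes, beside 0.01 over all genes tested, of which 5102 of 9814 with a ratio were higher.

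Fibcd1 had the smallest p of any marker in the hippocampus. At 21.6 FPKM in DKO and 15.5 FPKM in control it was 38.8% higher, a log2 ratio of 0.47 (95% interval 0.20 to 0.75, p = 0.0007 and q = 0.205 in the authors' deposited table). A p this small was reached by 52 of the 9816 genes tested. Pou3f1 was 20.8% higher in DKO (log2 ratio 0.27, 95% interval 0.03 to 0.52, p = 0.0297 and q = 0.851 in the authors' deposited table). Spink8 had the largest ratio, 0.65 (95% interval -0.02 to 1.31, p = 0.0558 in the authors' deposited table).

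The other markers were higher in DKO than in control by log2 ratios of 0.03 for Amigo2 to 0.29 for Bok. Their intervals all included 0, and the smallest p among them was that of Rgs14, 0.138 in the authors' deposited table. The DKO and TRF2-depleted samples were compared with the same control samples, so those comparisons are not independent of each other.

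Compared directly, DKO exceeded TRF2-depleted hippocampus for 7 of the 10 markers, where 5149 of 9818 tested genes were higher. Again 0 of 9 tested markers were called by Cuffdiff, beside 0.173% of the 9818 tested genes. Wfs1 and Pou3f1 had an unadjusted p under 0.05 in the higher direction, against 3.27% of the tested genes. Pou3f1 had 19.3 FPKM in DKO and 15.6 FPKM in TRF2-depleted hippocampus (log2 ratio 0.31, 95% interval 0.06 to 0.55, p = 0.0142 and q = 0.719 in the authors' deposited table). Wfs1 had 28.3 FPKM in DKO and 23.6 FPKM in TRF2-depleted hippocampus (log2 ratio 0.26, 95% interval 0.03 to 0.50, p = 0.0292 and q = 0.846 in the authors' deposited table). Both were also the CA1 markers that lay below control in the TRF2-depleted samples, without passing the test. The same TRF2-depleted values enter both comparisons, so this match was partly set in advance.

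Bok had the largest ratio of DKO over TRF2-depleted, 0.53, with 18.0 FPKM in DKO and 12.5 FPKM in TRF2-depleted hippocampus (95% interval -0.03 to 1.09, p = 0.0649 in the authors' deposited table). Mpped1, Amigo2 and Map3k15 were the genes lower in DKO than in TRF2-depleted hippocampus, with log2 ratios of -0.11, -0.16 and -0.10. The medians were 0.18 over the CA1 genes and 0.08 over the CA2 and CA3 genes, beside 0.01 over all genes tested.

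**Figure D3:**
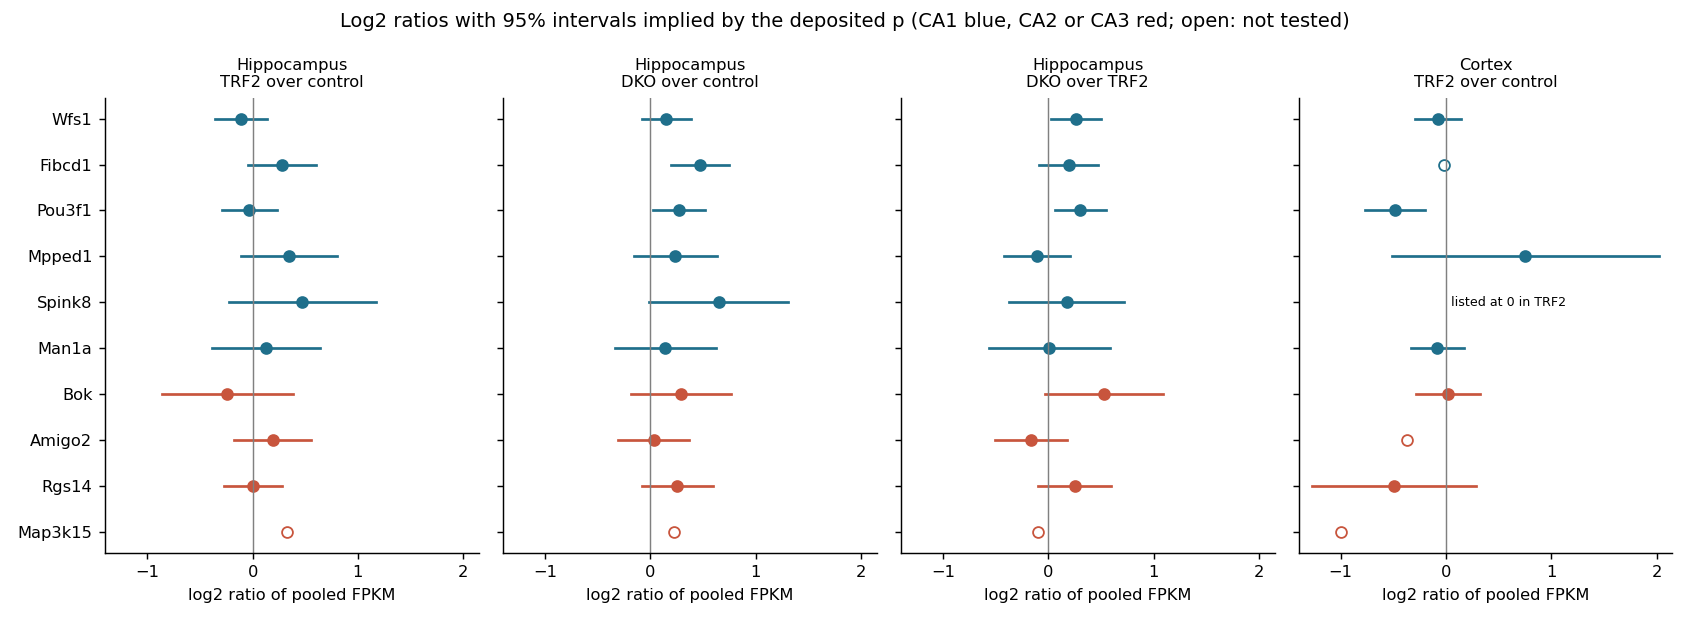
Log2 ratio of pooled FPKM for the 10 genes in each comparison, with 95% intervals implied by the deposited p as lines; CA1 genes are blue, CA2 and CA3 genes red, and open circles are genes the authors did not test. In DKO over control hippocampus all points lie right of 0. The lines of Fibcd1 (0.20 to 0.75) and Pou3f1 (0.03 to 0.52) lie clear of 0 there, and the other lines cross it. In TRF2-depleted over control hippocampus every line crosses 0.

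In cortex, 6 of the 10 markers were tested by Cuffdiff and 0 passed at a q of 0.05 or less, where 0.335% of 8658 tested genes were called. Pou3f1 came closest. It had 4.13 FPKM in TRF2-depleted and 5.78 FPKM in control cortex, 28.6% lower, a log2 ratio of -0.49 (95% interval -0.77 to -0.20, p = 0.00085 and q = 0.0639 in the authors' deposited table). It was the 1 marker with an unadjusted p under 0.05, against 4.59% of tested genes in the lower direction, and 39 of the 8658 genes tested had a p as small. Adjusted by Benjamini-Hochberg within the cortex comparison, the deposited p of Pou3f1 gave 0.206, which is above 0.10 as well.

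Pou3f1 is also a transcription factor of deep-layer cortical neurons. The cortical log2 ratio of Pou3f1 was 0.45 below the hippocampal one (cortex minus hippocampus -0.45, 95% interval -0.84 to -0.07 from the implied errors). Adjusted over the 8330 genes tested in both tissues by the Benjamini-Hochberg method the p was 0.824, and 0 of the 6 markers tested in both tissues differed between them, against 2 of the 8330 genes. The labels do not say whether the tissues came from the same animals.

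The other cortical values were less certain. Rgs14 had 4.35 FPKM in TRF2-depleted and 6.13 FPKM in control cortex (log2 ratio -0.49, 95% interval -1.28 to 0.29), and Mpped1 had a log2 ratio of 0.75 (95% interval -0.52 to 2.02). Their p values of 0.216 and 0.245 in the authors' deposited table show how wide the errors were, for ratios at least as large as that of Pou3f1. Wfs1, Man1a and Bok had log2 ratios of -0.07, -0.08 and 0.02.

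The genes not tested in cortex were those with little transcript there. Fibcd1 had 0.920 FPKM in TRF2-depleted and 0.931 FPKM in control cortex, and Amigo2 had 0.997 FPKM in TRF2-depleted and 1.29 FPKM in control cortex. Spink8 was listed at 0 in TRF2-depleted and at 0.296 FPKM in control cortex, and Map3k15 had 0.113 FPKM in TRF2-depleted and 0.226 FPKM in control cortex. Over the 9 markers with a ratio in cortex, 2 were higher and 7 lower, with a median of -0.08, beside -0.03 over all genes tested, of which 4854 of 8656 with a ratio were lower.

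Further genes of the same neurons were read beside the 10 markers. Of 5 other CA1 genes, 0 were called in any hippocampal comparison, and their median log2 ratio was -0.01 in TRF2-depleted over control and 0.17 in DKO over control. Gpr161, an orphan G-protein-coupled receptor, was at 0.0703 FPKM in TRF2-depleted, 2.35 FPKM in DKO and 2.45 FPKM in control hippocampus, with p = 0.138 for TRF2-depleted over control in the authors' deposited table. Ndst4, a heparan sulfate sulfotransferase, was lower in DKO at 5.07 FPKM, against 6.76 FPKM in control (log2 ratio -0.42, p = 0.00375 and q = 0.437 in the authors' deposited table). Pex5l and Tyro3 had 34.0 and 19.7 FPKM in DKO, against 30.2 and 16.5 FPKM in control hippocampus, with smallest p of 0.0673 and 0.055 among their rows in the authors' deposited table. The p of Pex5l is that of a single row, with 28.1 FPKM in DKO and 19.2 FPKM in control. The other rows of Pex5l were lower in DKO than in control.

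Of 9 other CA2 and CA3 genes in the table, 7 were tested in TRF2-depleted over control hippocampus and 0 were called, with 4 higher, 5 lower and a median log2 ratio of -0.21. In DKO over control 0 of 7 tested were called, with 6 higher, 3 lower and a median of 0.33, or 0.03 over the tested genes alone. Cacng5, an auxiliary subunit of AMPA receptors, had 2.29 FPKM in TRF2-depleted, 2.96 FPKM in DKO and 1.68 FPKM in control hippocampus. Its log2 ratio of DKO over control was 0.82 (p = 0.00035 and q = 0.135 in the authors' deposited table). Cpne4, a calcium-dependent membrane-binding protein, had 11.7 FPKM in TRF2-depleted, 6.85 FPKM in DKO and 10.2 FPKM in control hippocampus. Cpne4 was thus lower and Cacng5 higher in DKO than in control, with p = 0.0222 for Cpne4 in the authors' deposited table.

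Genes that pyramidal neurons of all fields share gave 0 calls among 7 in each hippocampal comparison. All 7 were lower in TRF2-depleted than in control hippocampus (median log2 ratio -0.15), where 4922 of 9820 tested genes with a ratio were lower. In DKO over control, 3 were higher and 4 lower (median -0.01), and all 7 were higher in DKO than in TRF2-depleted hippocampus. Bhlhe22, a basic helix-loop-helix factor that granule neurons express as well, had the smallest p among them. It had 17.6 FPKM in TRF2-depleted, 18.7 FPKM in DKO and 25.0 FPKM in control hippocampus (log2 ratio of TRF2-depleted over control -0.50, q = 0.0919 in the authors' deposited table). The part of granule neurons in the values of these 7 genes was not tested.

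Granule neurons of the dentate gyrus are the neighbouring population. All 9 dentate genes were lower in both conditions than in control hippocampus, and all 9 were higher in DKO than in TRF2-depleted hippocampus. By Cuffdiff 5 of 8 tested, namely Dsp, C1ql2, Stxbp6, Lct and Fam163b, fell in TRF2-depleted samples, against 12 of 9824 tested genes. Dsp, C1ql2 and Stxbp6, 3 of 8, fell in DKO samples, against 13 of 9816 tested genes. Of 9 tested CA markers, 0 were called in either. The dentate list was chosen with earlier results of these data known. Its counts and medians, and the sums and quotients below, are therefore a description. The median log2 ratio of the dentate genes was -1.05 in TRF2-depleted over control and -0.59 in DKO over control.

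The summed FPKM of the 6 CA1 markers was 1.99 times that of the 9 dentate genes in TRF2-depleted, 1.801 times in DKO and 1.01 times in control hippocampus. For the 4 CA2 and CA3 markers the quotient was 0.614 in TRF2-depleted, 0.627 in DKO and 0.363 in control hippocampus. The summed change against control in TRF2-depleted samples was 12.2% for the CA1 markers and -43.3% for the dentate genes. The dentate sum was 56.1 FPKM in TRF2-depleted, 67.7 FPKM in DKO and 99.0 FPKM in control hippocampus. The gene that adds most to it had 24.5 FPKM in control hippocampus and 25.4 FPKM in control cortex. The sum therefore does not stand for granule neurons alone.

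**Figure D4:**
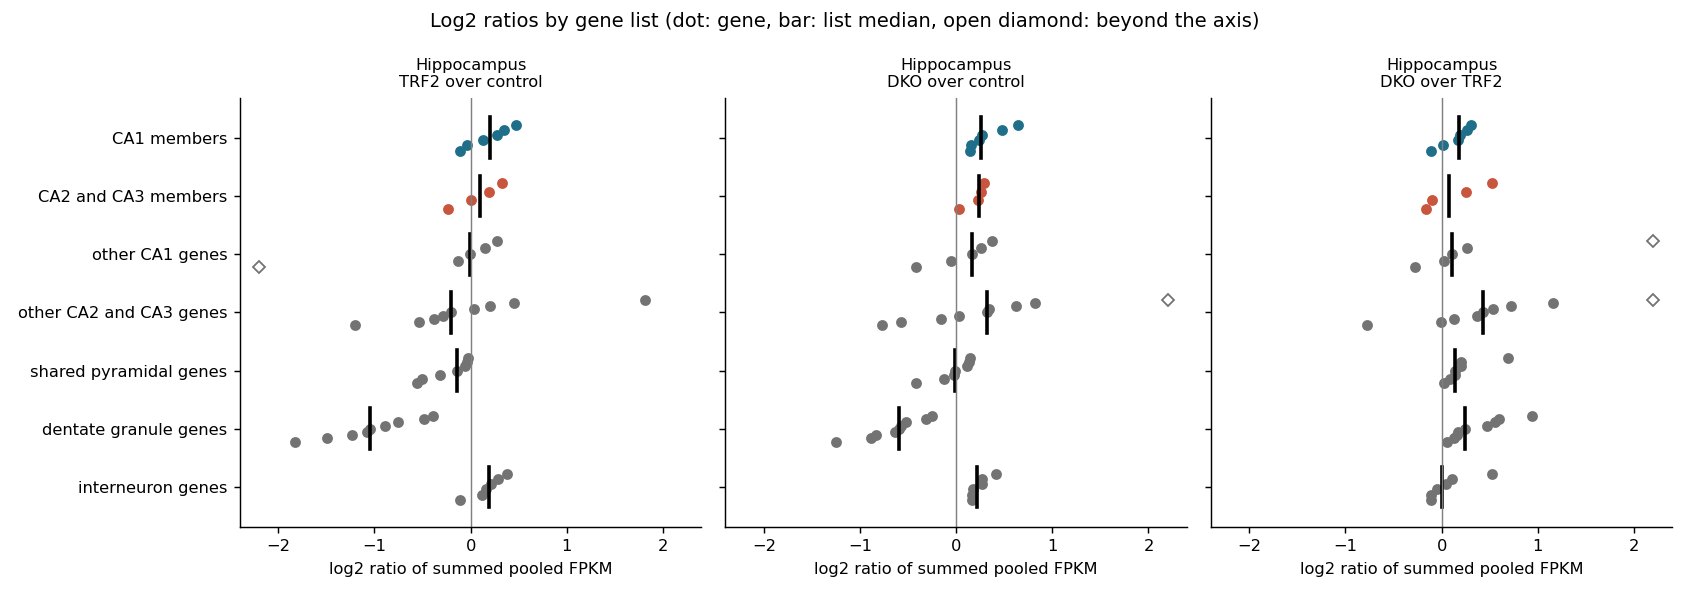
Log2 ratio of summed pooled FPKM for genes of 7 lists in the 3 hippocampal comparisons (dots: genes, black bars: list medians, open diamonds: genes beyond the axis). The dentate bars lie at -1.05 and -0.59 against control, while the bars of the CA1 genes lie at 0.20 and 0.26 and those of the CA2 and CA3 genes at 0.10 and 0.24.

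Markers of other cell types were read in the same groups. The 6 interneuron genes summed to 343 FPKM in TRF2-depleted, 347 FPKM in DKO and 306 FPKM in control hippocampus, with medians of 0.19 and 0.22 against control and 0 called. Against control, 5 of the 6 were higher in TRF2-depleted and all 6 in DKO samples. Over all tested genes with a ratio, 4898 of 9820 and 5102 of 9814 were higher. A uniform rise in DKO was thus not particular to the CA markers. The 5 choroid plexus genes summed to 487 FPKM in TRF2-depleted, 9.25 FPKM in DKO and 274 FPKM in control hippocampus, most of it Ttr. Of these, Ttr and Kl fell in DKO over control in the authors' deposited table, with q = 0.0301 each. The 5 meningeal genes summed to 43.1 FPKM in TRF2-depleted, 34.1 FPKM in DKO and 30.5 FPKM in control hippocampus, with 0 called, while 4 of the 4 tested had an unadjusted p under 0.05 in the higher direction in TRF2-depleted over control samples, against 2.71% of all tested genes.

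Tissue from outside the hippocampus was read in the same way. The 6 cortical pyramidal genes summed to 31.7 FPKM in TRF2-depleted, 32.6 FPKM in DKO and 29.0 FPKM in control hippocampus, and the 4 thalamic genes to 19.6 FPKM in TRF2-depleted, 23.6 FPKM in DKO and 19.4 FPKM in control hippocampus. In DKO over control, 2 of the 4 thalamic genes were higher and 2 lower, with log2 ratios from -0.22 to 0.45. Of the 3 thalamic genes tested there, 0 were called. The 2 higher genes, Calb2 and Prkcd, had p = 0.0072 and 0.01045 in the authors' deposited table. Oligodendrocyte, astrocyte and microglia genes, 4 of each, had medians between -0.15 and 0.15 in both comparisons with control. The 4 striatal genes had medians of 0.05 and 0.08. The part of these cell types and tissues in the CA marker values was not tested.

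Over the 5 pooled conditions, the genes whose centred log2 profile was most like the mean profile of the 10 markers were Cst3, Hagh, Slc25a22, Ly6h and 2310022B05Rik (each with Pearson's r of 0.999 or above in the table of 9657 genes). All 5 were lower in cortex and highest in DKO hippocampus. Cst3, the secreted protease inhibitor cystatin C, had 692 FPKM in TRF2-depleted, 703 FPKM in DKO and 673 FPKM in control hippocampus, and 423 FPKM in TRF2-depleted and 453 FPKM in control cortex. With 5 points that share 2 tables, 257 genes had an r above 0.99. Among the markers themselves, r with their mean profile was lowest for Mpped1, at 0.836, and 0.946 or higher for the others. Each marker is part of that mean, so a high r was partly set in advance.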

How the data were processed

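Total RNA was extracted with RNeasy columns and made into NEBNext Ultra libraries, per the labels' protocols. CASAVA 1.8, TopHat2, Cufflinks, Cuffdiff and the build mm10 are named in the submitters' processing notes, while their settings and the annotation used are not stated there. The authors deposited FPKM per coding-sequence row, with the replicates pooled into 1 value per condition, and a p-value and q-value per row, per the file headers. In the hippocampus table the q-value matches Benjamini-Hochberg over every tested row, all 3 comparisons pooled, and those of cortex differ from one over its own table by up to 0.335.

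FPKM was summed over the rows of each gene and log2 ratios were taken without a pseudocount. A gene was called where a tested row had q of 0.05 or less, across all genes. The error of a ratio is its size divided by the normal quantile of the deposited p, a calculation checked on drawn values. The interaction of tissue and TRF2 depletion was added after the data were seen. The members and 15 gene lists were chosen with earlier results of these data known. The rule for named genes took all 10 members, Terf2, the called genes of each companion list or up to 2 with the smallest p, at most 2 genes of each list of other cells, and the 5 genes most like the mean profile by log2(FPKM + 0.1) with at least 1 FPKM in every condition. The lists hold 1 gene that is not reported here. Loci are mm10 as deposited, and neighbouring genes come from GENCODE M21 (GRCm38). Nothing ties samples to separate animals, so the deposited p-value reflects only how these samples vary. Depth per sample is unknown. Python 3.11.15 was used with pandas 2.3.3, numpy 2.4.6, scipy 1.17.1 for quantiles, and matplotlib 3.10.9 for plots.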

Additional observations from a re-analysis of the deposited data

How the results depend on the processing

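No paired analysis was possible because the authors' tables hold 1 pooled value per condition, and for the same reason no replicate could be left out. Whether the sample named for both tissues entered the pooled values is not known here. Of the 4 counts of called markers, each 0, those of DKO over control and of DKO over TRF2-depleted hippocampus became 2 at an unadjusted p under 0.05, and that of cortex became 1 at this p and at a q of 0.10, which is Pou3f1. Adjusting within each comparison left all 4 at 0, with 0.206 for Pou3f1 in cortex, as did a q of 0.10 in the hippocampus. A median was taken as unchanged where it moved by less than 0.1 on the log2 scale. The median of the CA2 and CA3 genes in DKO over TRF2-depleted hippocampus was 0.25 without Map3k15, the gene under 1 FPKM. In cortex the median of all members became -0.21 with a pseudocount of 0.1, which lets Spink8 in, and that of the CA2 and CA3 genes -0.17 with a pseudocount of 1. For control hippocampus over control cortex, the medians of all members, CA1 genes and CA2 and CA3 genes were 1.17, 1.22 and 1.05 when centred on all genes. With a pseudocount of 1 they were 1.22 for CA1 genes and 1.05 for CA2 and CA3 genes, and with at least 1 FPKM 1.38 for all members and for the CA2 and CA3 genes. Centring turned the sign of ratios near 0 for Man1a in DKO over TRF2-depleted hippocampus (-6.5e-05) and for Fibcd1 in cortex (0.0089). No median of the 3 sets changed sign under these settings. Precision is limited by the unknown depth, above all for Map3k15 and for Spink8 and Fibcd1 in cortex.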
